A study of Mus musculus with 9 samples.

Results

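Pairs of CpG positions on 1 DNA strand, 2 to 100 bp apart, were compared for how alike their methylation was. A pair was kept where both positions were autosomal, were read at least 20 times in each of the R, WWD and WT pools, and lay in 1 kb windows with fewer than 20 rows of the WT table. This last limit, called the density limit here, leaves out windows dense in rows. A row is a CpG position of either strand with enough reads, so rows only stand in for CpG density. This gave 570827 pairs among 488959 positions. In all, 624411 positions met the coverage and density limits, and 135452 of them had no partner within 100 bp. The whole WT table holds 1702827 autosomal positions and 6125107 same-strand pairs at these spacings. No methylation level entered the choice. A position can belong to several pairs, so the pairs are not independent.

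The DNA came from Dnmt TKO cells, mouse embryonic stem cells of the pluripotent J1 line without DNA methyltransferases, at passages 7 to 10. R and WWD carried the mutant Dnmt3a2 constructs of those names, WT carried wild-type Dnmt3a2, and for C and TKO no construct is recorded. R, WWD, WT and C have 2 samples each but 1 deposited table per group, called a pool here, and TKO has 1 sample. A pool gives no replicate error, so each difference between pools below is one between these tables, and the spread given is over the 19 autosomes of the same pool. The amount of each construct in the cells was not measured in these files.

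Dnmt3a2 is the shorter isoform of Dnmt3a, a de novo methyltransferase that places methyl groups on CpGs that carry none. Its ADD domain binds the tail of histone H3, and its catalytic domains can join into tetramers and longer filaments along DNA, with neighbouring active sites about a turn of the helix apart. A period near 8 to 10 bp in methylation has been discussed for this enzyme on that ground. Because the maintenance methyltransferase Dnmt1 is also missing in these cells, a pattern within a pair is not copied at replication by that enzyme. In reduced representation bisulfite sequencing (RRBS) the genome is cut at MspI sites and reads start at the cut, so the CpGs of a close pair are usually read on the same molecules.

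Depth was high in every pool. Pools held 210550841 read calls in R, 148992409 in WWD, 196155033 in WT, 145831662 in C and 133814232 in TKO. Member positions had a median coverage of 145 reads in R, 106 in WWD, 131 in WT, 92 in C and 87 in TKO. Counting error made up 1.93% of the variance of methylation between member positions in R, 3.38% in WWD and 2.59% in WT. In C and TKO, at 20 or more reads, it made up 39.8% and 37.2%. The mean level of the members was 31.2% in R, 13.7% in WWD and 29.8% in WT, against 0.491% in C and 0.502% in TKO over the members with at least 10 reads there. At 20 or more reads, the limit used for C and TKO in all values by spacing below, it was 0.487% in C and 0.285% in TKO. Both are given beside the construct pools, and whether C holds methylation of its own was not tested. Of the members, 67.4% had at least 0.5 times as many reads in TKO as in WT and are called positions with full TKO reads. The other 32.6% were more methylated, at 43.5% in R, 28.2% in WWD and 39.6% in WT, and had a median of only 37 reads in WWD, against 114 in R and 118 in WT. The reason for their low depth was not tested.

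CpGs of a pair resembled each other in all 3 construct pools, least in WWD. Averaged over the 99 spacings, Pearson's r of the percent methylated between the members was 0.514 in R (SD 0.0252 over 19 autosomes), 0.247 in WWD (SD 0.0198) and 0.560 in WT (SD 0.0252). It was 0.217 in C and 0.0454 in TKO. The mean absolute difference within a pair was 17.6 percentage points in R (SD 0.849), 14.2 points in WWD (SD 0.791) and 15.6 points in WT (SD 0.787). Any 2 member positions, paired or not, differed on average by 29.2 points in R, 18.98 in WWD and 27.5 in WT. Set against this, a pair differed by 60.2% of the unpaired difference in R, 74.6% in WWD and 56.6% in WT, and by 79.1% in C and 102% in TKO. The unpaired value counts each position once, while a position with several partners enters the pairs several times. Positions with more partners were less methylated, so the 2 values weigh positions differently. How much this adds to the reduction was not tested.

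The correlation fell with distance in each construct pool. Over spacings of 2 to 20 bp it averaged 0.625 in R, 0.439 in WWD and 0.657 in WT. Over 81 to 100 bp it averaged 0.457 in R, 0.139 in WWD and 0.517 in WT. The decay, the first mean minus the second, was 0.168 in R (SD 0.0323 over autosomes), 0.301 in WWD (SD 0.0348) and 0.140 in WT (SD 0.0305), and was positive in 19 of 19 autosomes in each of the 3 pools. In the single autosomes it lay between 0.0944 and 0.230 in R, between 0.236 and 0.367 in WWD and between 0.0811 and 0.199 in WT. The highest r was at 5 bp, with 0.709 in R, 0.584 in WWD and 0.731 in WT.

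**Figure D1:**
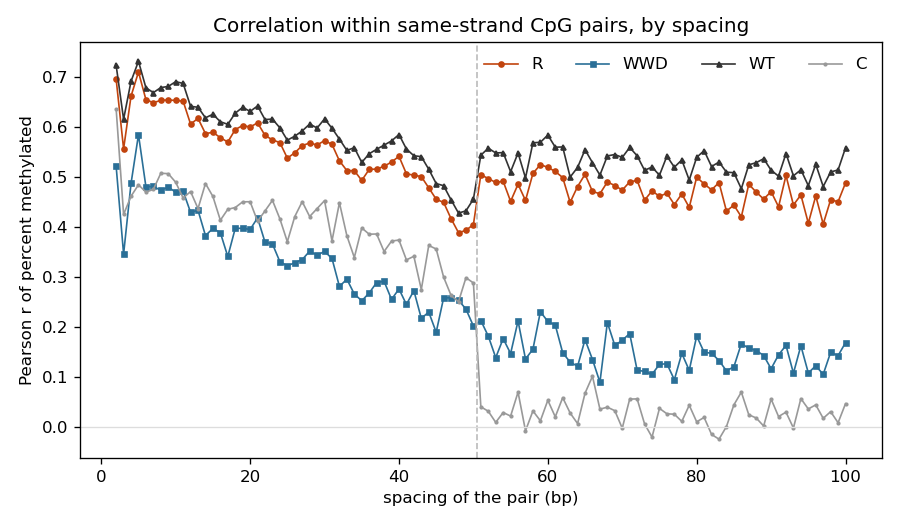
Pearson's r of percent methylated between the members of a pair (vertical axis) at each spacing from 2 to 100 bp (horizontal axis), in R, WWD, WT and C; each point is 1 spacing, and the dashed line lies between 50 and 51 bp. WT lies above R and R above WWD at every spacing, and C drops to near 0 beyond 50 bp.

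The pairs fell into 2 kinds by spacing. At 2 to 50 bp there were 498110 pairs, 87.3% of all, with 6413 to 14867 pairs per spacing. At 51 to 100 bp there were 72717, with 1177 to 1651 per spacing, and the number dropped from 7351 at 50 bp to 1232 at 51 bp. The read length is not given in the sources used here, but such a step is where 1 read would stop covering both members. C, where almost nothing was methylated, changed at the same step. Its r was 0.288 at 50 bp and 0.0404 at 51 bp, and it averaged 0.471 over 2 to 20 bp and 0.0283 over 51 to 100 bp. TKO did not share this, with a mean r of 0.0945 over 2 to 20 bp and 0.0248 over 51 to 100 bp. Whether what gives C its r at up to 50 bp also enters r in R, WWD and WT was not tested.

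Decay was also present among spacings that stay within the first kind. From 5 to 15 bp r averaged 0.638 in R, 0.462 in WWD and 0.667 in WT, and from 35 to 45 bp 0.505 in R, 0.253 in WWD and 0.544 in WT. The drop of 0.133 in R, 0.209 in WWD and 0.122 in WT was positive in 19 of 19 autosomes in each pool. Beyond 50 bp, r stayed above the values of 0.0283 in C and 0.0248 in TKO. It averaged 0.471 in R, 0.148 in WWD and 0.528 in WT, and it declined slowly. At 51 to 60 bp it was 0.492 in R, 0.180 in WWD and 0.547 in WT. On the same strand r did not fall steadily past 100 bp. From there to 150 bp it was 0.465 in R, 0.138 in WWD and 0.523 in WT, at 151 to 200 bp 0.492 in R, 0.183 in WWD and 0.548 in WT, and at 251 to 300 bp 0.373 in R, 0.0871 in WWD and 0.418 in WT. At 351 to 400 bp, the farthest class measured, it was 0.416 in R, 0.142 in WWD and 0.460 in WT.

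Part of this resemblance lay between methylated and unmethylated positions. Among pairs whose members both reached 20% in another pool (221518 pairs chosen in WT for R, and 220472 chosen in R for WWD and WT), r averaged 0.141 in R, 0.143 in WWD and 0.233 in WT. Narrowing the range of levels lowers r by construction, so the difference within a pair was set beside the unpaired one again. It was 90.4% of the unpaired difference in R, 91.1% in WWD and 84.3% in WT. The unpaired difference here was taken over all members at 20% in the other pool, each counted once. It includes members whose partner was below 20%, so the sets of positions are not the same. Close pairs still resembled each other more than distant ones in this class, with r of 0.290 in R, 0.336 in WWD and 0.362 in WT at 2 to 20 bp, and 0.0361 in R, 0.0291 in WWD and 0.151 in WT at 81 to 100 bp.

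The difference within a pair grew with spacing as r fell, but this rested on part of the positions. Over 81 to 100 bp the mean absolute difference was 2.84 points larger than over 2 to 20 bp in R (SD 0.807), 3.09 points in WWD (SD 0.725) and 2.09 points in WT (SD 0.767), in 19 of 19 autosomes each. With positions of full TKO reads only (364741 pairs), the rise was 0.607 points in R (13 of 19 autosomes), -0.435 points in WWD (5 of 19) and 0.657 points in WT (13 of 19). The decay of r was present in that class in 19 of 19 autosomes of each pool, at 0.123 in R, 0.244 in WWD and 0.116 in WT. Within-pair differences there averaged 13.9 points in R, 6.38 in WWD and 12.9 in WT.

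**Figure D2:**
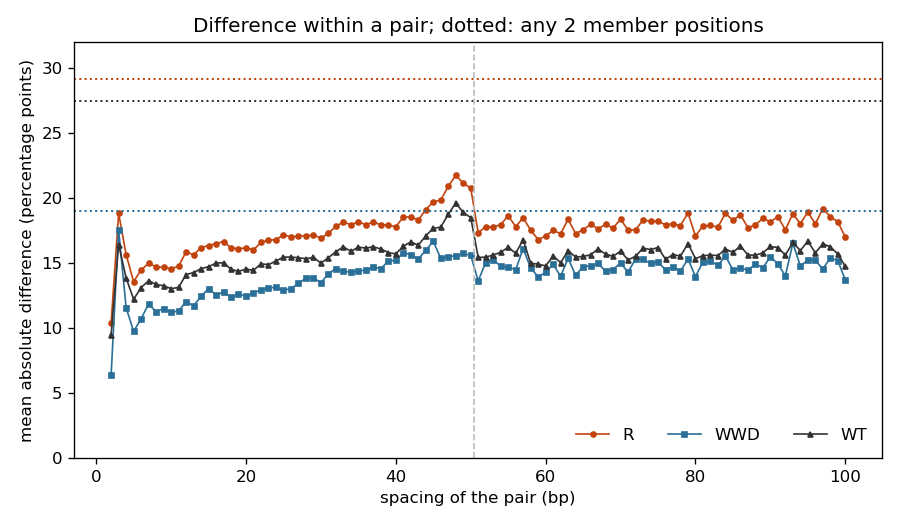
Mean absolute difference in percent methylated within a pair (vertical axis, percentage points) at each spacing in bp (horizontal axis), in R, WWD and WT; dotted lines give the mean difference of any 2 member positions of the same pool (29.2 points in R, 18.98 in WWD and 27.5 in WT), and the dashed line lies between 50 and 51 bp. The 3 curves rise from 5 to 45 bp, stand high at 3 bp and, in R and WT, near 48 bp, and are nearly flat beyond 51 bp.

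A period of about 10 bp appeared in r, though not as the strongest in every range or subset of positions, and mostly not in the within-pair difference. A running mean over 21 bp was taken off before the ranges below were cut. Near the step, r was therefore measured against r on both sides of it, so the ranges are not fully separate. What part the step has in these waves was not tested. Sine and cosine waves with 69 periods from 3 to 20 bp were then fitted. Over spacings 51 to 100 bp, beyond the step, the strongest period was 10.25 bp in R (amplitude 0.0162 in r), 10.25 bp in WWD (0.0218) and 10.0 bp in WT (0.0148). The median amplitude over all periods there was 0.00402 in R, 0.00866 in WWD and 0.00512 in WT. Over 5 to 45 bp it was 10.75 bp in R (amplitude 0.0198), 10.75 bp in WWD (0.0181) and 10.5 bp in WT (0.0216), with medians of 0.0123 in R, 0.0141 in WWD and 0.0110 in WT. A wave of 10 bp held 31.8% of the remaining variance in R, 13.7% in WWD and 41.6% in WT in that range. In C and TKO it held 0.706% and 1.89%. Over 51 to 100 bp the amplitude at 10 bp was 0.0142 in C, close in size to those of R and WT, but there the largest C amplitude within 8 to 10 bp ranked 23 of 69 and the median over all periods was 0.0123. In TKO the amplitude at 10 bp was 0.00294 in that range.

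The cycle was small and stood among other bumps when all spacings were scanned together. From 2 to 100 bp, the largest amplitude within 8 to 10 bp was at 10.0 bp, with 0.0141 in R, 0.0186 in WWD and 0.0152 in WT. This ranked 8 of 69 periods in R, 2 in WWD and 7 in WT, and the strongest period was 16.25 bp in R, 10.25 bp in WWD and 16.0 bp in WT. In C the largest amplitude within 8 to 10 bp was of similar size, 0.0154 at 9.5 bp, and ranked 21. In TKO it was 0.0115 at 8 bp and ranked 12. The amplitude at 10 bp was 2.74% of the mean r in R, 7.54% in WWD and 2.71% in WT. In the 3 ranges scanned the strongest period was never under 10.0 bp in R, WWD or WT. Over 51 to 100 bp it was 10.0 bp in R, 10.25 bp in WWD and 9.75 bp in WT on the even-numbered autosomes, but 5.75 bp in R, 7.0 bp in WWD and 5.75 bp in WT on the odd-numbered ones. There the largest amplitude within 8 to 10 bp ranked 4 of 69 in R, 11 in WWD and 6 in WT. With full TKO reads only, the best period over 5 to 45 bp was 10.5 bp in R, 10.75 bp in WWD and 10.5 bp in WT, but over 51 to 100 bp it was 4.75 bp in R, 6.75 bp in WWD and 4.75 bp in WT. The number of pairs had no such period, with 10 bp ranking 38 of 69.

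The mean absolute difference mostly did not show the cycle. From 2 to 100 bp its strongest period was 15.75 bp in R, 3 bp in WWD and 15.75 bp in WT, and from 5 to 45 bp it was 16 bp in R, 14.75 bp in WWD and 16 bp in WT. From 51 to 100 bp it was 10.0 bp in R, with an amplitude of 0.266 points against a median of 0.0884, but 3 bp in WWD and 6 bp in WT. The largest amplitude within 8 to 10 bp ranked 14 of 69 in R, 14 in WWD and 10 in WT over 2 to 100 bp.

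Read off directly, r stood highest at spacings near a multiple of 10 bp. From 5 to 44 bp, spacings ending in 0 lay above the running mean by 0.0223 in R, 0.0172 in WWD and 0.0261 in WT, in 4 of 4 spacings each. Spacings ending in 4 deviated by -0.0191 in R, -0.0293 in WWD and -0.0194 in WT, in 4 of 4 each. Spacings within 1 bp of a multiple of 10 exceeded those 5 bp farther on, from 8 to 47 bp, by 0.0429 in R (SD 0.0156), 0.0383 in WWD (SD 0.0276) and 0.0473 in WT (SD 0.0124). The excess was positive in 18 of 19 autosomes in R, 17 in WWD and 19 in WT. The spacings 5 bp farther on include 44 to 46 bp, at the edge of the class of 46 to 50 bp described below. What part that class has in the excess was not tested. With full TKO reads only it was 0.0527 in R, 0.0505 in WWD and 0.04995 in WT, positive in 18 autosomes in R, 19 in WWD and 19 in WT. This contrast was set after the cycle had been seen.

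CpGs on opposite strands, which are read on different molecules, gave the cycle with its crest shifted, most clearly in 1 of the 2 orientations. Among all 624411 positions that met the coverage and density limits, 373292 pairs lay across the strands at 2 to 100 bp. Positions without a same-strand partner could enter these pairs, so the 2 sets of positions are not the same. The strongest period was 10.0 bp in R (amplitude 0.0178), 10.25 bp in WWD (0.0148) and 10.0 bp in WT (0.0211), against median amplitudes of 0.00411 in R, 0.00458 in WWD and 0.00436 in WT. The crest of the 10-bp wave lay 5.54 bp into the cycle in R, 4.78 bp in WWD and 5.56 bp in WT, while on the same strand it lay at 0.668 bp in R, 9.38 bp in WWD and 0.683 bp in WT. The contrast of multiples of 10 bp with spacings 5 bp on was -0.0310 in R, -0.0310 in WWD and -0.0379 in WT, negative in 19 of 19 autosomes in R, 18 in WWD and 19 in WT. The wave was larger where the forward-strand position came first along the chromosome, with an amplitude at 10 bp of 0.0242 in R, 0.0192 in WWD and 0.0255 in WT. In the other orientation it was 0.00476 in R, 0.0148 in WWD and 0.00941 in WT. The strongest period in that orientation was 8.75 bp in R, 18.5 bp in WWD and 8.75 bp in WT. Over 5 to 45 bp it was 13.5 bp in R, 9.25 bp in WWD and 10.5 bp in WT. Across strands r decayed less, by 0.0911 in R, 0.0549 in WWD and 0.0905 in WT between 2 to 20 and 81 to 100 bp. Over 2 to 100 bp the mean r across strands was 0.463 in R, 0.138 in WWD and 0.520 in WT. Same-strand pairs over 51 to 100 bp, another range of spacings, had 0.471 in R, 0.148 in WWD and 0.528 in WT.

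**Figure D3:**
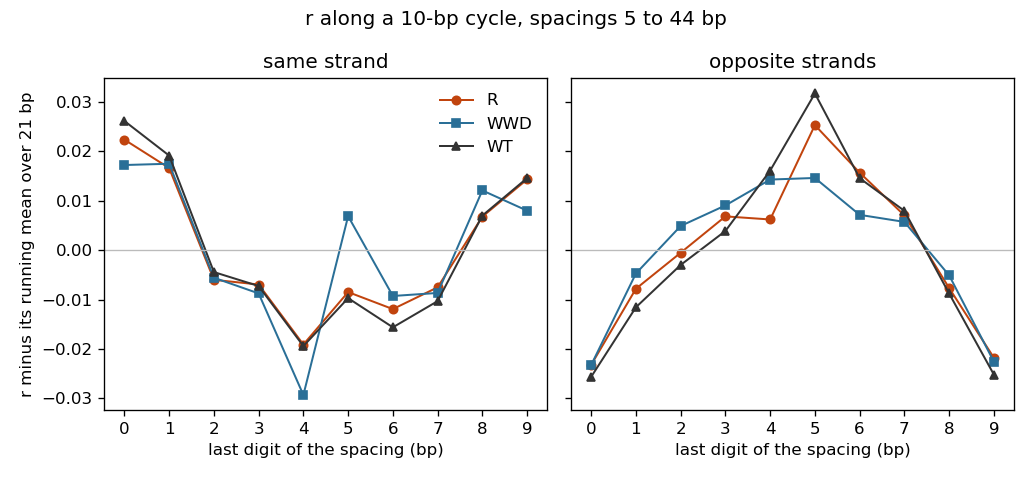
r minus its running mean over 21 bp (vertical axis), averaged over the 4 spacings from 5 to 44 bp that end in the same digit (horizontal axis), for same-strand pairs (left) and opposite-strand pairs (right) in R, WWD and WT. Same-strand values are high at 0 and 1 and low at 4, and opposite-strand values are high at 5 and low at 9 and 0.

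At some spacings the place of the members on the fragment mattered. The 5' member, nearer to the start of the strand being read, was the more methylated one in each spacing class up to 50 bp, by 2.94 points in R, 4.89 in WWD and 2.37 in WT at 21 to 30 bp. At 46 to 50 bp the gap was 8.71 points in R, 8.18 in WWD and 7.57 in WT, and at 51 to 60 bp it was -0.331 in R, -2.29 in WWD and -0.290 in WT. In the same class r was 0.410 in R and 0.450 in WT, lower than at 51 to 60 bp, and the lowest r of these pools stood at 48 bp, with 0.388 in R and 0.427 in WT. In WWD it was 0.0893, at 67 bp. The gap at 46 to 50 bp was larger where the 5' member was the first position of its strand, with no other within 100 bp before it, at 10.3 points in R, 9.79 in WWD and 8.90 in WT. For later positions it was 3.18 points in R, 2.72 in WWD and 3.02 in WT. The nearly unmethylated C and TKO shared the sign of the gap and its switch past 50 bp. At 50 bp the 5' and 3' members had 0.732% and 0.335% in C and 0.556% and 0.127% in TKO. At 51 bp they had 0.465% and 0.569% in C and 0.248% and 0.402% in TKO. Whether these small gaps and those of the construct pools have a common source was not tested.

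The dip of r at 3 bp, to 0.556 in R, 0.346 in WWD and 0.615 in WT, was deepest among such first positions. Of the pairs at 3 bp, 2941 began with a first position, and only 0.986% of these had full TKO reads at both members. Their first members had 54.8% in R, 49.99% in WWD and 50.04% in WT, and the next had 33.3% in R, 26.3% in WWD and 31.6% in WT. Their r was 0.168 in R, -0.305 in WWD and 0.317 in WT. The 7651 other pairs at 3 bp showed a smaller dip, with r of 0.629 in R, 0.451 in WWD and 0.663 in WT. Among pairs without a first position r was 0.695 in R, 0.520 in WWD and 0.723 in WT at 2 bp, and 0.711 in R, 0.546 in WWD and 0.735 in WT at 4 bp. What part the cut site, the low depth in TKO or the place in the read has in these values was not tested.

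The mutants were compared with WT at each spacing. R had a lower r than WT at 99 of 99 spacings, and its mean r was lower by 0.0463 (R minus WT -0.0463, SD 0.0054 over autosomes), in 19 of 19 autosomes. WWD minus WT was -0.313 (SD 0.0139), also negative at 99 of 99 spacings and in 19 of 19 autosomes. The within-pair difference in points was larger in R than in WT at 99 of 99 spacings and smaller in WWD at 98 of 99. WWD had the lower level, which bounds a difference in points. Decay was larger in R than in WT in 19 of 19 autosomes, by a mean of 0.0291, and larger in WWD than in WT in 19 of 19, by 0.163. With full TKO reads only, R minus WT was -0.0399 and WWD minus WT -0.347. Taking the counting variance out left both on the same side. Since each group is 1 pool, these values have no replicate check.

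The number of WT rows per kb, which stands in for CpG density, and the resemblance varied together, though not in 1 direction at every step. At 2 to 20 bp, r was 0.499 in R, 0.411 in WWD and 0.534 in WT in windows with under 5 WT rows per kb (98574 pairs), 0.539 in R, 0.402 in WWD and 0.575 in WT with 5 to 9 rows, and 0.687 in R, 0.464 in WWD and 0.715 in WT with 10 to 19 rows. The sparsest class has too few pairs at 81 to 100 bp. Its mean r over the spacings it does hold was 0.428 in R, 0.326 in WWD and 0.468 in WT. In windows with 5 to 9 rows, r over 2 to 100 bp averaged 0.398 in R, 0.198 in WWD and 0.449 in WT, and in windows with 10 to 19 rows 0.572 in R, 0.273 in WWD and 0.614 in WT. The decay was larger with 5 to 9 rows, where r at 81 to 100 bp was 0.306 in R, 0.0731 in WWD and 0.375 in WT, against 0.503 in R, 0.166 in WWD and 0.556 in WT with 10 to 19 rows. In the dense windows left out by the rule (2636611 pairs, 20 or more rows) r was 0.650 in R, 0.319 in WWD and 0.680 in WT, at mean levels of 1.10% in R, 0.713% in WWD and 0.979% in WT. Positions with more partners were less methylated. Those without a partner within 100 bp averaged 38.3% in R, 19.1% in WWD and 36.3% in WT, and those with 4 or more averaged 21.5% in R, 9.45% in WWD and 20.2% in WT. The number of partners rises with the rows per kb, so the 2 cannot be told apart here.

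Which member of a pair was higher was mostly shared between pools where the members differed by 5 points or more in WT. Over all pairs, the signed 5' minus 3' difference of R correlated with that of WT at r = 0.919 (0.910 to 0.927 in the single autosomes), with a slope of 1.02. For WWD it was 0.721 (0.710 to 0.730), with a slope of 0.751. The relation hardly varied with spacing: from 2 to 10 bp to 81 to 100 bp the 6 classes gave 0.910 to 0.927 for R and 0.710 to 0.741 for WWD. These are descriptions over pairs that share positions, and R and WWD are set against the same WT pool.

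In the 32770 pairs whose 5' member was at least 40 points higher in WT, by a mean of 52.1 points, the difference averaged 53.8 points in R (SD 14.6 over pairs) and 43.7 points in WWD (SD 27.0). The sign was that of WT in 99.9% of these pairs in R and 99.02% in WWD. In the 17430 pairs whose 3' member was higher by more than 40 points in WT, the mean was -49.1 in R and -33.6 in WWD, beside -50.1 in WT. In the same 2 classes C had mean differences of 0.749 and -0.263 points and TKO 0.587 and 0.121 points. The mean difference kept near to that of WT in R over all 7 classes, and in WWD it was nearer to 0 than in WT in the 6 classes outside the middle one, most so where the 3' member was higher in WT. The sign of WT was kept less often at smaller differences. With the 5' member higher by 5 to under 20 points in WT, it was kept in 88.7% of pairs in R and 76.7% in WWD. With the 3' member higher by that much, the shares were 86.2% and 72.9%. In the middle class, 203451 pairs with WT differences near 0, they were 39.4% in R and 33.8% in WWD.

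**Figure D4:**
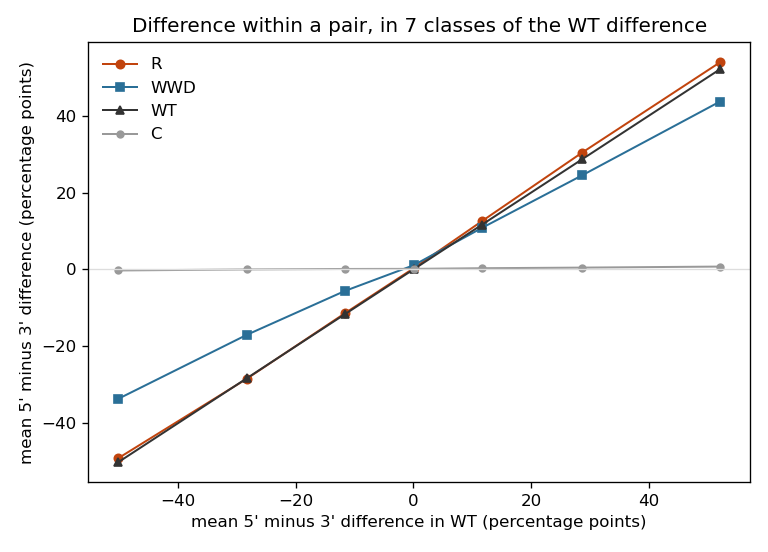
Mean 5' minus 3' difference of a pair (vertical axis, percentage points) in R, WWD, WT and C, for pairs grouped into 7 classes by their difference in WT (horizontal axis, class mean in percentage points); each point is 1 class. R follows WT, WWD is nearer to 0 on both sides of the middle class, and C stays within 0.749 points of 0.

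Single positions were called different from WT by a two-sided Fisher's exact test with Benjamini-Hochberg adjustment over all positions tested, at an adjusted p under 0.01 and 25 points. This compares the reads of 2 pools, not the conditions. Of the 488959 positions in pairs, 142923 were lower in WWD (29.2%) against 13.4% of all positions tested, and 43808 of the 135452 positions without a partner were (32.3%). A lower call needs at least 25% in WT, and all positions tested include dense windows, whose pairs averaged 0.979% in WT. Members also needed 20 reads in R, WWD and WT, against 10 in both pools for all positions tested. The excess over 13.4% is therefore not a result about pairing. Higher in WWD were 2493 (0.510%) against 0.461% of all. In R, 1902 were higher (0.389%) against 0.234% of all, and 485 lower (0.0992%) against 0.0438% of all. The positions without a partner had 842 higher in R (0.622%) and 141 lower (0.104%), so having a partner did not go with more calls.

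Positions called lower in WWD came in pairs more often than their overall share. A lower call needs at least 25% in WT, and the WT levels of the members of a pair were correlated. This raises the share of paired calls by construction, and members at equal WT levels were not compared. Members of a close pair are also usually read on the same molecules, so their calls are not independent. Both members were called in 74259 pairs and 1 member in 135792. Where the 5' member was called, the 3' member was called in 54.4%, against 25.9% of all 3' members. The share was 56.5% at 2 to 10 bp, 58.6% at 11 to 20 bp and 54.9% at 41 to 45 bp. It was 43.9% at 46 to 50 bp and 42.7%, 42.3% and 42.4% at 51 to 60, 61 to 80 and 81 to 100 bp, against 21.4% to 21.9% of all 3' members at these spacings. The calls in R were sparser. With a 5' member called higher in R, the 3' member was called in 37 of 424 pairs at 2 to 10 bp (8.73%) against 0.269% of all 3' members. Beyond 50 bp too few pairs remained to compare: with 41, 79 and 115 pairs in the 3 classes and 0.312% to 0.358% of all 3' members called, a count of 0 in each says nothing on the share.

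**Figure D5:**
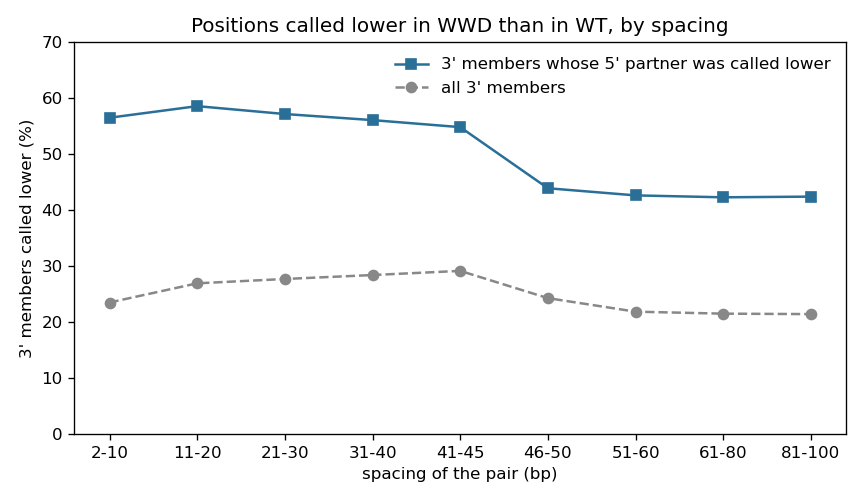
Share of 3' members called lower in WWD than in WT (vertical axis, %) in 9 classes of spacing in bp (horizontal axis), among pairs whose 5' member was called (squares) and among all pairs (circles). The squares lie at 54.9% to 58.6% up to 45 bp and at 42.3% to 43.9% from 46 bp on.

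Single pairs show how far neighbours can differ. Of 141569 pairs with at least 50 reads per member in R, WWD and WT and a WT mean of at least 30%, the 2 with the largest and the 1 with the smallest WT difference are described in each of 3 spacing classes. Their WT values chose them. Coordinates are in mm9, and the gene content is not given, since the annotation used here is of another build. Intervals are 95% Wilson intervals and cover counting error only.

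On chromosome 17, positions 28143217 and 28143221 of the forward strand lie 4 bp apart. The first was methylated in 91.5% of 130 reads in R (85.5 to 95.2%), in 92.9% of 84 reads in WWD (85.3 to 96.7%) and in 90.5% of 105 reads in WT (83.4 to 94.7%). The second had 0 methylated reads of 133 in R (up to 2.81%), of 89 in WWD (up to 4.14%) and of 105 in WT (up to 3.53%). In C neither had a methylated read of 33. Neither position passed the test against WT in either mutant (adjusted p = 1, Fisher's exact test). A pair on chromosome 12, at 114147048 and 114147058 on the forward strand, was similarly uneven. Its members had 89.7% and 1.72% in R, 96.4% and 10.2% in WWD, and 92.2% and 0% in WT, at 51 to 59 reads each, and C had 5.26% of 19 reads at the first and 0 of 19 at the second. At these pairs nearly all reads held C at one position and almost none at the next in all 3 construct pools. No sequence of this build was at hand. Whether these and the other named positions are CpGs in the DNA of these cells was not tested.

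Methylated reads in C or very unequal depth stood beside the next 3 uneven pairs too. On chromosome 4, positions 148909642 and 148909658, 16 bp apart on the forward strand, had 98.9% and 0% in R, 98.2% and 0% in WWD and 95.5% and 0% in WT, and both had 25% of 20 reads in C (11.2 to 46.9%). TKO had no value there, nor at the pairs on chromosomes 12 and 17 just given. On chromosome 17, positions 75297768 and 75297739 of the reverse strand, 29 bp apart, had very unequal depth. The first had 1952 reads in R, 1902 in WWD and 1588 in WT, and the second had 504 in R, 106 in WWD and 339 in WT. Their levels were 1.23% and 94.25% in R, 0.05% and 66.0% in WWD, and 0.94% and 93.8% in WT, and C had 14.3% of 35 reads at the second. The second was lower in WWD by 27.8 points (adjusted p = 1.26e-10, Fisher's exact test). On chromosome 13, positions 50116914 and 50116869, 45 bp apart on the reverse strand, had 2099 and 423 reads in R, with 11.2% and 95.5%. WWD had 1.22% and 79.8% there and WT 5.80% and 96.8%. Whether reads of repeated DNA add to these deep positions was not tested.

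The other 4 pairs were 1 uneven and 3 level ones. On chromosome 7, positions 88793773 and 88793723, 50 bp apart on the reverse strand, had 81.55% and 0% in R, 63.1% and 0% in WWD and 92.3% and 0% in WT. The first was lower in WWD by 29.2 points (adjusted p = 6.52e-05, Fisher's exact test). Among the level pairs, positions 15910564 and 15910555 of chromosome 1 (reverse strand, 9 bp apart) had 33.3% and 26.8% in R, 5.00% and 5.00% in WWD and 42.1% and 42.1% in WT, and both were lower in WWD (adjusted p = 1.19e-06 each, Fisher's exact test). At 24294238 and 24294272 of chromosome 1 (forward strand, 34 bp apart) the levels were 17.2% and 28.3% in R, 0% and 17.4% in WWD and 31.7% and 31.7% in WT. The first was lower in WWD (adjusted p = 3.22e-12, Fisher's exact test), and the second did not pass (adjusted p = 0.0507). At 166442572 and 166442616 of chromosome 1 (forward strand, 44 bp apart) they were 74.4% and 75.5% in R, 49.55% and 61.5% in WWD and 77.1% and 77.1% in WT. The first was lower in WWD by 27.6 points (adjusted p = 0.000113, Fisher's exact test), and the second did not pass (adjusted p = 0.0423). At these 3 level pairs TKO had 0 methylated reads of 51 to 100, and R passed at none of the 6 positions.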

How the data were processed

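Per the labels' protocols, MspI fragments in gel slices of 150 to 250 and 250 to 400 bp were bisulfite converted. Bismark, methylKit and mm9 are named in the submitters' processing notes, with no versions or roles. Each deposited row holds, per the file headers, a CpG position, its strand, a read count (coverage) and the percent of C. All rows held at least 10 reads. The labels name 1 table for both samples of a group, so the authors' values were taken as pooled. Of 6 tables, 5 were used, and the labels tie the other to no sample. Unused columns of values numbered 8. Methylated read counts were coverage times percent, rounded. A read with neither C nor T counted as unmethylated. PCR copies cannot be told from molecules, so intervals cover counting error only.

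Members, lists and tests were chosen with earlier results of these data known. For each spacing with at least 200 pairs, r and the mean absolute difference were computed in each pool. Means over spacings weigh each spacing equally. Autosomes needed at least 20 pairs per spacing, with 2 exceptions. Decay and rise with full TKO reads needed 10, and the contrast of multiples of 10 bp had a higher limit. Decay was r over 2 to 20 minus r over 81 to 100 bp. Periods from 3 to 20 bp in steps of 0.25 bp were fitted by least squares after a running mean over 21 bp was taken off. Fisher's exact test was run on positions read at least 10 times in both pools. The unpaired difference is the mean over any 2 member positions, each position counted once. Named pairs followed a rule of coverage, level and WT difference, with 2 largest and 1 smallest in each spacing class and none from chromosome 18. C and TKO enter values by spacing where both members had 20 reads there. No test was made of r, for want of replicates. Computations used Python 3.11.15, numpy 2.4.6, pandas 2.3.3, scipy 1.17.1 and numba 0.67.0, and the scripts were tried on simulated data. Alternatives are given below.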

Additional observations from a re-analysis of the deposited data

How the results depend on the processing

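No paired analysis was possible because each group has 1 deposited table, and for the same reason no sample could be left out. A value is given here where it moved by more than the SD over the 19 autosomes, or a count by more than 1.5 times. Of 278 alternative values 160 did not, and 2 changed sign. Amplitudes, mean absolute differences and counts are never negative, so those could not change sign. An amplitude within 8 to 10 bp can also stay the same where the strongest period lies elsewhere. The 160 include the amplitudes without over-represented spacings, which could not move, since no spacing was over-represented by the limit set. The ranges of levels, the spacings 5 to 15 against 35 to 45, and the scans over 5 to 45 and 51 to 100 bp were chosen after seeing the data. The cause of the shifts was not tested. No reversal touched the decay of r, the lower r of R and WWD than of WT, or the shared differences.

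With coverage of at least 10 the shared difference correlated with WT at 0.905 in R and 0.700 in WWD. With coverage of at least 50 it was 0.932 in R and 0.739 in WWD, the within-pair difference was 16.4 points in R and 10.7 in WWD, and in WWD the decay was 0.343, the rise 1.88 points and the period amplitude 0.0292. In windows with fewer than 10 rows, r was 0.380 in R, 0.198 in WWD and 0.432 in WT, the difference 21.3 points in R, 17.4 in WWD and 18.9 in WT, the rise 4.48 points in R, 5.15 in WWD and 3.41 in WT, the decay 0.248 in R and 0.213 in WT, the WT amplitude 0.0210, R minus WT -0.0520 and WWD minus WT -0.234. In windows with 20 or more rows, r was 0.650 in R, 0.319 in WWD and 0.680 in WT, the difference 1.17 points in R, 1.07 in WWD and 1.01 in WT, the decay 0.0963 in R, 0.177 in WWD and 0.0856 in WT, the rise 0.0950 points in R, 0.164 in WWD and 0.0723 in WT, the WWD amplitude 0.00850, R minus WT -0.0308, WWD minus WT -0.362 and the shared difference 0.831 in R and 0.626 in WWD. With neighbouring positions only, r was 0.434 in R, 0.1996 in WWD and 0.483 in WT, the difference 20.1 points in R, 17.1 in WWD and 17.8 in WT, the decay 0.243 in R, 0.345 in WWD and 0.209 in WT, the rise 5.59 points in R, 7.57 in WWD and 4.38 in WT, the amplitude 0.0207 in R and 0.0213 in WT, and WWD minus WT -0.284. Without pairs that start at the first position of a strand, the difference was 15.8 points in R, 11.5 in WWD and 14.1 in WT, WWD minus WT -0.334 and the WWD shared difference 0.727. Spearman's rho was 0.620 in R, 0.357 in WWD and 0.656 in WT, with a decay of 0.110 in R, 0.202 in WWD and 0.0919 in WT, a WWD amplitude of 0.00941 and R minus WT of -0.0366. With full TKO reads only, the difference was 13.9 points in R, 6.38 in WWD and 12.9 in WT, the decay 0.123 in R and 0.244 in WWD, the rise 0.607 points in R, -0.435 in WWD and 0.657 in WT, R minus WT -0.0399, WWD minus WT -0.347, and the shared difference 0.912 in R and 0.758 in WWD. Across strands, r was 0.463 in R, 0.138 in WWD and 0.520 in WT, the decay 0.0911 in R, 0.0549 in WWD and 0.0905 in WT, the WT amplitude 0.0211, R minus WT -0.0566 and WWD minus WT -0.381. From 2 to 10 against 91 to 100 bp the decay was 0.202 in R and 0.343 in WWD, and from 5 to 15 against 35 to 45 bp 0.133 in R and 0.209 in WWD. Where the mean of a pair reached 20% in another pool, r was -0.0102 in R, 0.0540 in WWD and 0.0669 in WT, a choice that by its construction sets the members apart, with a decay of 0.293 in R, 0.340 in WWD and 0.246 in WT and an amplitude of 0.0221 in R and 0.0257 in WT. Where both members did, r was 0.141 in R, 0.143 in WWD and 0.233 in WT, the decay 0.254 in R and 0.211 in WT, and the amplitude 0.0226 in R and 0.0293 in WT. At 10 points of difference, 10817 positions were called in R and 322619 in WWD, with 6316 in R and 224846 in WWD in pairs, against 4703 in R and 209251 in WWD, with 2387 and 145416 in pairs, at 25 points. At 40 points it was 569 in R and 77005 in WWD, with 149 and 48828 in pairs. At an adjusted p under 0.05, 8597 were called in R, 3783 of them in pairs.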
